A study of Homo sapiens with 8 samples.

Results

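The genes described here are 38 components of the unfolded protein response and the amino acid stress response, chosen by symbol from a table of 13771 genes and all present in it. They fall into 3 groups. The first holds 5 sensors and core factors, the second 18 genes known as targets of the transcription factor ATF4, and the third 15 chaperones and degradation factors of the endoplasmic reticulum (ER).

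RNA-seq was made from 8 libraries in 4 groups of 2. MCF10A is a non-tumorigenic human breast epithelial line, and MCF10 DCIS.COM (DCIS.COM) is a derivative of the same lineage that forms lesions resembling ductal carcinoma in situ in mice. Each line was stably transduced with pCDH-HOTAIR, a lentiviral vector carrying the long noncoding RNA HOTAIR, or with pCDH-empty as its control, and all 4 groups were selected with puromycin. The study asked what over-expression of HOTAIR does to a normal and a pre-invasive breast line. Both lines were kept in DMEM/F-12 with horse serum, and the MCF10A medium also held epidermal growth factor, hydrocortisone, insulin and cholera toxin, so the line and its medium cannot be told apart in any comparison between the lines. The labels do not say whether the 2 libraries of a group came from separate cultures, so the p-values measure the spread between these libraries, which may be technical. Nor do they say whether a transduced line was a pool or 1 clone.

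When unfolded proteins build up in the ER, the sensors PERK, IRE1 and ATF6 are activated. ATF6 and the spliced form of XBP1 made by IRE1 switch on chaperones and degradation factors, while PERK phosphorylates the initiation factor eIF2, which lowers general translation and favours translation of ATF4. Lack of amino acids acts on eIF2 through another kinase, GCN2, so ATF4 targets such as serine synthesis enzymes and amino acid transporters answer to both stresses. Sensor cleavage, eIF2 phosphorylation and XBP1 splicing are not measured by these gene-level values, which give RNA abundance only.

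The values are log2 CPM, that is read counts scaled to a library size on the log2 scale. The libraries held 19306864 to 34884841 reads over the listed genes. The size used was not the plain total of reads. In DCIS.COM pCDH-empty replicate 1 each read stood for 0.0333 CPM, which gives a size below its own 32258562 listed reads. HOTAIR was at 0.60 and 0.66 log2 CPM in MCF10A with the empty vector against 7.90 and 7.92 with the HOTAIR vector. In DCIS.COM it was at 2.01 and 2.40 against 7.66 and 7.57. One library stood apart from its group. In DCIS.COM pCDH-empty replicate 1, RN7SL1 and RN7SL2, the RNA of the signal recognition particle, took 18.9% of the reads, against 11.1% to 15.0% in the other 7. It differed from its replicate by over 0.3 log2 units for 9 of the 38 genes and for 33.9% of all genes. In the other 3 groups this held for 1 to 2 of the 38 and for 8.23% to 12.2% of all genes. For part of the results that rest on this library, the value without it is given too. All 10 basal epithelial markers examined were listed, and 8 were lower and 2 higher in DCIS.COM with the empty vector, while 6 of 7 luminal markers listed were higher. Of markers of other cell types, 1 of 7 fibroblast genes was listed (FAP, 80.2 to 103 CPM in MCF10A and 0.637 to 1.41 CPM in DCIS.COM). For leukocytes 3 of 6 were listed, with neither PTPRC nor CD3E among them, and with a summed level of 51.0 to 55.2 CPM in MCF10A and 5.998 to 7.10 CPM in DCIS.COM. For endothelium 1 of 5 was listed (PECAM1, 1.77 to 2.77 and 10.2 to 13.4 CPM). The part of these markers in the line differences below was not tested.

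Several of the 38 genes carry, within their promoters, the short DNA elements through which these pathways are known to act, and those windows are printed here so that the values can be read beside them. RefSeq promoters (250 bases before to 50 after the start, GRCh38.p14) were listed for 34 of the 38 genes, with no entry used for PSPH, SHMT2, SLC7A11 and PDIA3. The search covered 3 elements on both strands. The CARE, bound by dimers of C/EBP factors with ATF4, was searched as TGATGNAAN, where N is any base. The ER stress element ERSE, bound by ATF6 with NF-Y, was searched as CCAAT and CCACG with 9 bases of any kind between them, and its other form ERSE-II as ATTGG and CCACG with 1 base between them. The block CCAAT of ERSE is ATTGG on the other strand, so the 2 forms share their blocks. They differ in the direction of this block relative to CCACG and in the spacing, and no promoter of the 34 held both.

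The CARE was in 3 of 15 promoters of ATF4 targets (ASNS, CHAC1 and SLC3A2), in 1 of 14 promoters of ER genes (HERPUD1) and in 0 of 5 promoters of sensors and core factors, against 3.67% of all 27305 promoters. The windows are given 5′ to 3′ on the strand of the gene, with the fixed bases of the element in capitals. The coordinates are those of GRCh37, in which each window matched once on its chromosome, and every window lies upstream of the RefSeq transcription start. The windows of ASNS, CHAC1, HSP90B1, CANX and CRELD2 are inside those genes as GENCODE draws them, which start farther upstream, and the windows of the other genes are outside theirs. The element of SLC3A2, not printed, lies after the start.
ASNS (chr7:97501769-97501798, minus strand): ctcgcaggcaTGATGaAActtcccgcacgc
CHAC1 (chr15:41245449-41245478, plus strand): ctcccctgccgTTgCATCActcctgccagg
In ASNS the element reads forward and in CHAC1 it reads on the opposite strand.

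ERSE was in 5 of 14 ER promoters (HSPA5, HSP90B1, CALR, CANX and CRELD2), in 1 of 5 promoters of the sensors and core factors (XBP1) and in 0 of 15 of the ATF4 targets, against 0.0806% of all promoters.
XBP1 (chr22:29196586-29196627, minus strand): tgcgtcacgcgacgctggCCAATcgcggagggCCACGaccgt
HSPA5 (chr9:128003662-128003712, minus strand): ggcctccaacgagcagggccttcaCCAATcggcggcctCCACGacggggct
HSP90B1 (chr12:104323989-104324018, plus strand): cctgaCCAATcggaaggagCCACGcttcgg
HSP90B1 (chr12:104324093-104324122, plus strand): tgggtgCGTGGtgcggcgcgATTGGtgggt
CALR (chr19:13049183-13049232, plus strand): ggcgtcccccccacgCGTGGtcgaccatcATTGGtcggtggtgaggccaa
CANX (chr5:179125774-179125803, plus strand): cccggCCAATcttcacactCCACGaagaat
CRELD2 (chr22:50312187-50312236, plus strand): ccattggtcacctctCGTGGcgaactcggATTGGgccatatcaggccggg
HSP90B1 carries the element in both orientations.

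ERSE-II was in 3 of 14 ER promoters (HERPUD1, SDF2L1 and HYOU1) and in none of the other 20 promoters of the list, against 0.0549% of all promoters. HERPUD1 is shown with both its CARE and its ERSE-II.
HERPUD1 (chr16:56965864-56965963, plus strand): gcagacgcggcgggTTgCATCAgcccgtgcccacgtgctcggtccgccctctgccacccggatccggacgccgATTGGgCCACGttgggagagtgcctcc
SDF2L1 (chr22:21996386-21996435, plus strand): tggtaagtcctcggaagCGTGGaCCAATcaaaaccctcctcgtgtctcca
HYOU1 (chr11:118927972-118928116, minus strand): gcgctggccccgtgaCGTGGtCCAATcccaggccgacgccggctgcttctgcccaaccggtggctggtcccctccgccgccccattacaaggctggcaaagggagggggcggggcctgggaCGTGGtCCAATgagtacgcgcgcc
A match is a string of letters and not a measured binding site.

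Per kilobase of the canonical transcript, a pair of ER chaperones were the most abundant of the 38 genes in every group, and the levels between genes are compared on this scale only. CALR, the calcium-binding lectin chaperone calreticulin, had rank 1 in all 4 groups, from 352 CPM per kb in MCF10A pCDH-empty to 457 in DCIS.COM pCDH-HOTAIR. HSP90B1, the ER form of HSP90, had rank 2 in all 4, from 293 to 386 CPM per kb. ATF4 itself had rank 3 in both MCF10A groups and rank 4 in both DCIS.COM groups, at 247 to 283 CPM per kb. CANX, calnexin, exchanged places with it, at 155 to 310.3 CPM per kb. The least abundant genes in all 4 groups were ERN1, at 0.374 to 0.614 CPM per kb, and CHAC1, at 0.878 to 1.16 CPM per kb. PHGDH ranked 19 of 38 in both MCF10A groups and 12 in both DCIS.COM groups, whereas XBP1 moved from rank 12 or 11 to rank 19 or 18.

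**Figure D1:**
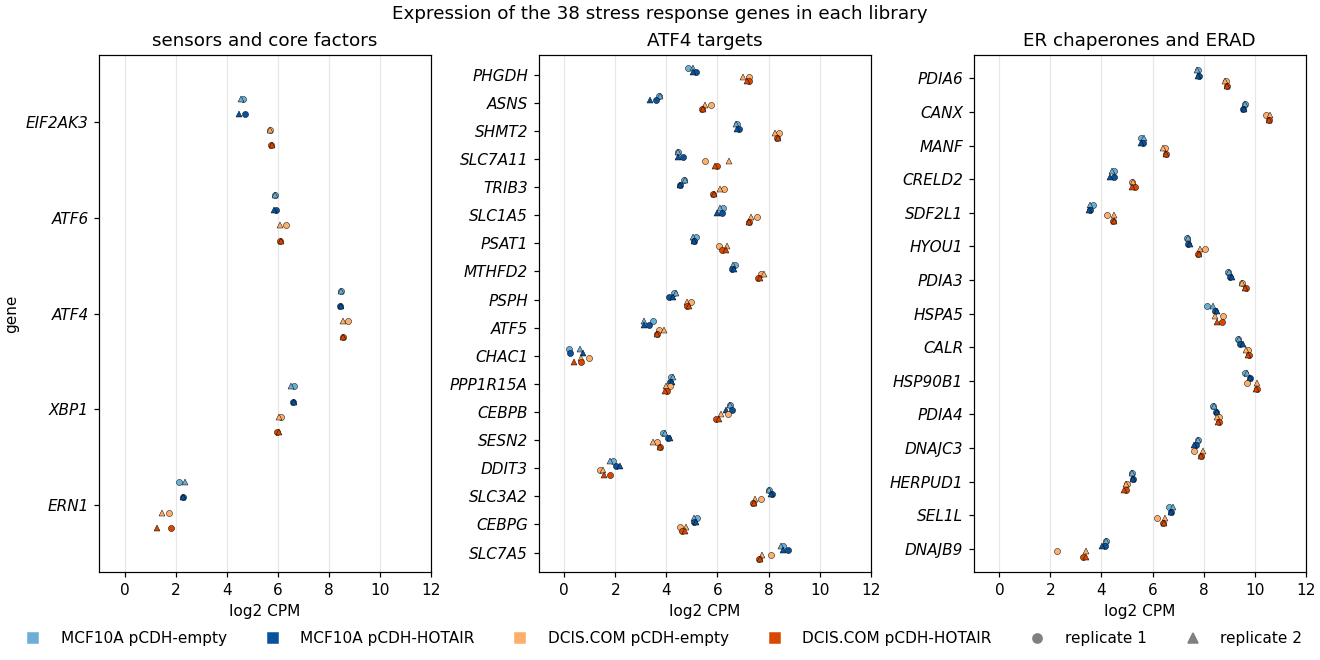
Expression of the 38 genes in log2 CPM (x axis) in each of the 8 libraries, with genes (y axis) in 3 panels by group and ordered by their difference between the lines. Circles are replicate 1 and triangles replicate 2, and colours mark the 4 groups. In the panel of ATF4 targets the DCIS.COM points of PHGDH lie between 6.997 and 7.22 and its MCF10A points between 4.83 and 5.16.

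The first comparison asks how the 2 lines differ with the empty vector. DCIS.COM held more RNA of PHGDH, PSAT1, SHMT2 and MTHFD2 of serine and one-carbon synthesis, of asparagine synthetase and of 5 ER chaperones or secreted ER factors than MCF10A, and less of SLC7A5, ERN1 and DNAJB9. A gene is called here when its limma adjusted p (Benjamini-Hochberg over all genes) is under 0.05 and it differs by at least 1.5-fold. By this rule 17 of the 38 were called, 14 higher and 3 lower in DCIS.COM, while 46.3% of all genes were called, 22.5% higher and 23.8% lower. The share of the list that was called at all was thus close to that of the table, and its calls lay mostly on the higher side. The median log2 fold change was 0.39 over the 38 genes, 0.18 over the sensors and core factors, 0.54 over the ATF4 targets and 0.36 over the ER genes, and -0.00012 over all genes. Without DCIS.COM pCDH-empty replicate 1 these medians were 0.36, 0.08, 0.54, 0.43 and 0.01 in that order. With no fold threshold 22 of the 38 passed the adjusted p higher and 10 lower, against 33.8% and 34.4% of all genes. Each log2 fold change compares 2 libraries with 2 and stands with its standard error (SE). In bulk RNA, fewer cells expressing a gene and less RNA per cell cannot be told apart.

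The same comparison between the 2 HOTAIR-vector groups uses the other 4 libraries. There 19 of the 38 were called, 15 higher and 4 lower, against 43.7% of all genes, 22.0% higher and 21.7% lower. The median log2 fold change of the 38 was 0.27, against 0.0035 over all genes. In both comparisons 16 genes were called in the same direction, against 38.4% of all genes, and all 38 kept the same sign. With these settings DNAJB9 was called with the empty vector only, and XBP1, PSPH and SLC3A2 with the HOTAIR vector only. The HOTAIR-vector value of DNAJB9 was also called under 7 of the alternatives that keep all libraries and the thresholds, and PSPH was called with the empty vector under 3. Whether these 4 genes differed between the vectors is the interaction test given further on, and none passed it. With the empty vector every DCIS.COM library was above every MCF10A library for 25 of the 38 and below for 12, and 81.6% of all genes likewise did not overlap. With HOTAIR it was 25 and 12 again, against 89.2%. At any fold, 19 of the 38 passed the adjusted p higher and 10 lower with HOTAIR, against 32.8% and 32.7% of all genes.

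**Figure D2:**
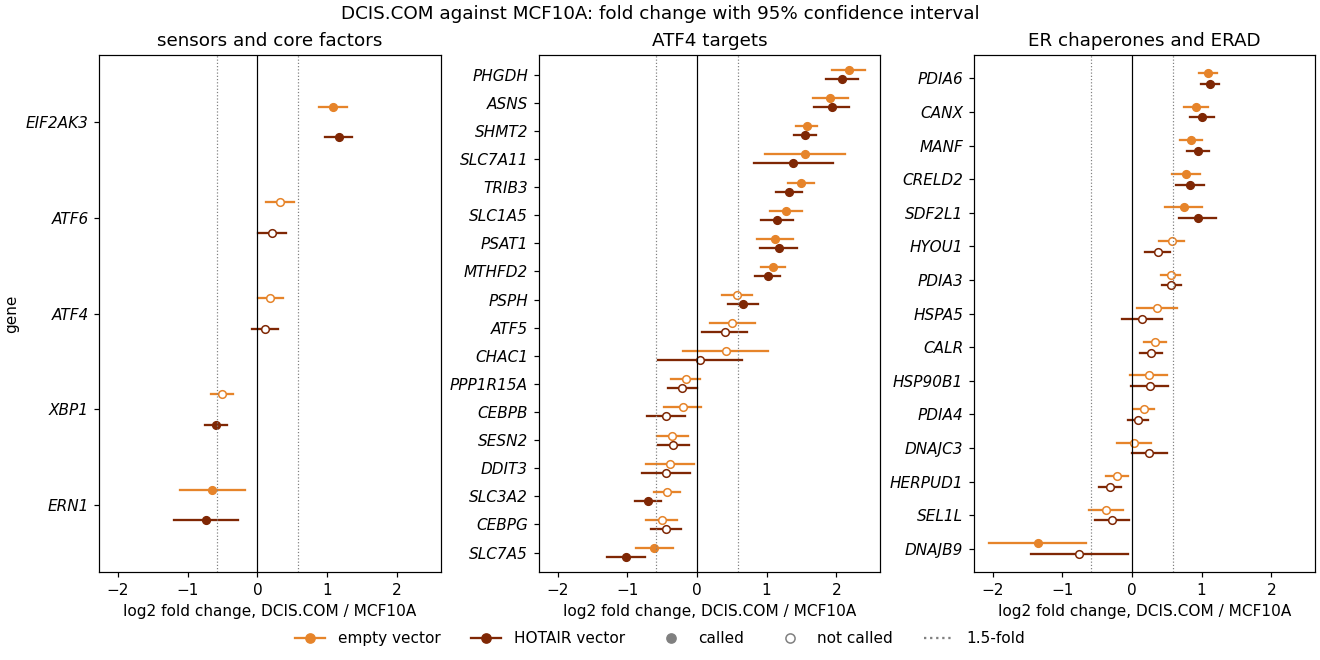
Log2 fold change of DCIS.COM over MCF10A (x axis) with its 95% confidence interval (lines) for each gene (y axis), in the 2 empty-vector groups and in the 2 HOTAIR-vector groups (n = 2 libraries a group). Filled points are called, and dotted lines mark 1.5-fold. PHGDH and ASNS lie farthest to the right in both, and SLC7A5, ERN1 and DNAJB9 lie on the left.

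Among the 3 ER sensors, EIF2AK3 was higher and ERN1 lower in DCIS.COM. EIF2AK3 (chr2:88856259-88991036, GRCh37) encodes PERK, the ER kinase of eIF2, and measured 4.62 and 4.57 log2 CPM in MCF10A with the empty vector, 4.70 and 4.49 with HOTAIR, 5.69 and 5.67 in DCIS.COM with the empty vector and 5.74 and 5.78 with HOTAIR. Each DCIS.COM library was about 1 log2 unit above each MCF10A library, and the groups did not overlap. The log2 fold change was 1.09 ± 0.08 (SE, limma adjusted p = 1.03e-05) with the empty vector, a 2.12-fold difference, and 1.17 ± 0.08 (SE, limma adjusted p = 6.95e-06) with HOTAIR.

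ERN1 (chr17:62116440-62208179) encodes IRE1, the sensor that splices XBP1 mRNA. It measured 2.12 and 2.34 log2 CPM in MCF10A with the empty vector, 2.28 and 2.27 with HOTAIR, 1.72 and 1.44 in DCIS.COM with the empty vector and 1.80 and 1.28 with HOTAIR, on 71 to 133 reads a library. All DCIS.COM libraries were below all MCF10A libraries, and the 2 libraries of DCIS.COM with HOTAIR lay apart. Its log2 fold change was -0.65 ± 0.20 (SE, limma adjusted p = 0.0199) with the empty vector and -0.74 ± 0.20 (SE, limma adjusted p = 0.0114) with HOTAIR. This call rested on single libraries. With the empty vector it was lost without MCF10A pCDH-empty replicate 2 (-0.53) or DCIS.COM pCDH-empty replicate 2 (-0.51). With the HOTAIR vector it was lost without MCF10A pCDH-HOTAIR replicate 1 (-0.73) or replicate 2 (-0.75) or DCIS.COM pCDH-HOTAIR replicate 2 (-0.48).

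ATF6, the sensor that is cut to release a transcription factor, measured 5.90 and 5.87 log2 CPM in MCF10A with the empty vector, 5.92 and 5.86 with HOTAIR, 6.33 and 6.09 in DCIS.COM with the empty vector and 6.10 and 6.10 with HOTAIR. The DCIS.COM values lay above the MCF10A values by a small step, with 1 library, DCIS.COM pCDH-empty replicate 1, above the rest. ATF6 had a log2 fold change of 0.33 ± 0.09 (SE, limma adjusted p = 0.00989) with the empty vector, under 1.5-fold, and 0.21 ± 0.09 (SE, limma adjusted p = 0.0614) with HOTAIR, and it was 0.20 without that library.

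XBP1 (chr22:29190543-29196585), the target of IRE1 splicing, measured 6.62 and 6.53 log2 CPM in MCF10A with the empty vector, 6.59 and 6.62 with HOTAIR, 6.11 and 6.02 in DCIS.COM with the empty vector and 5.97 and 6.04 with HOTAIR. All 4 DCIS.COM libraries were below all 4 MCF10A libraries. XBP1 had a log2 fold change of -0.51 ± 0.07 (SE, limma adjusted p = 0.000259) with the empty vector, short of 1.5-fold, and -0.60 ± 0.07 (SE, limma adjusted p = 0.000101) with HOTAIR, a 1.51-fold lower level just past it. The latter call was lost without MCF10A pCDH-HOTAIR replicate 2 (-0.58) or DCIS.COM pCDH-HOTAIR replicate 1 (-0.56), and under each of 3 other scalings. ATF4, the shared effector of PERK and GCN2, measured 8.45 and 8.47 log2 CPM in MCF10A with the empty vector, 8.42 and 8.49 with HOTAIR, 8.75 and 8.54 in DCIS.COM with the empty vector and 8.57 and 8.56 with HOTAIR. Its groups did not overlap between the lines with the empty vector, but the step was small, and the log2 fold change of 0.18 ± 0.08 (SE, limma adjusted p = 0.0688) was not past the threshold. Without DCIS.COM pCDH-empty replicate 1 it was 0.08. Translation of ATF4, its known point of control, is not seen in these values.

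The ATF4 targets divided by role. Of the 6 enzymes of serine, one-carbon and asparagine synthesis, 5 were called higher in DCIS.COM with the empty vector and 6 with HOTAIR. Of all genes 22.5% and 22.0% were called higher. The median log2 fold change of the 6 enzymes was 1.35 and 1.36. Their summed level was 305 to 311 CPM in the 4 MCF10A libraries and 805 to 846 CPM in the 4 DCIS.COM libraries. PHGDH (chr1:120191034-120286841), the first enzyme of serine synthesis from glycolysis, measured 28.5 and 32.8 CPM in MCF10A with the empty vector, 35.8 and 33.2 with HOTAIR, 149.5 and 128 in DCIS.COM with the empty vector and 149 and 143 with HOTAIR. The lines did not overlap, and the vectors overlapped within DCIS.COM. PHGDH had the largest difference of the 38, a 4.52-fold higher level with the empty vector and a 4.23-fold higher one with HOTAIR. On the log2 scale these were 2.18 ± 0.10 (SE, limma adjusted p = 5.03e-07) and 2.08 ± 0.10 (SE, limma adjusted p = 6.70e-07).

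PSAT1, the aminotransferase that follows PHGDH, measured 35.4 and 33.1 CPM in MCF10A with the empty vector, 34.2 and 33.9 with HOTAIR, 66.3 and 83.6 in DCIS.COM with the empty vector and 73.2 and 80.7 with HOTAIR. PSPH, the phosphatase that releases serine, measured 19.5 and 20.5 CPM in MCF10A with the empty vector, 17.3 and 19.2 with HOTAIR, 31.4 and 28.2 in DCIS.COM with the empty vector and 28.01 and 29.5 with HOTAIR. For both enzymes the lines did not overlap, and the step was smaller than for PHGDH. PSAT1 had a log2 fold change of 1.12 ± 0.11 (SE, limma adjusted p = 4.56e-05) with the empty vector and 1.17 ± 0.11 (SE, limma adjusted p = 3.63e-05) with HOTAIR. PSPH had one of 0.57 ± 0.09 (SE, limma adjusted p = 0.000831), a 1.49-fold difference just under the threshold, and of 0.66 ± 0.09 (SE, limma adjusted p = 0.000384) with HOTAIR, 1.58-fold. PSPH thus stood at the fold threshold, and leaving out 1 library moved it across in both comparisons. It was called with the empty vector without MCF10A pCDH-empty replicate 2 (0.61) or DCIS.COM pCDH-empty replicate 2 (0.65), and was not called with HOTAIR without MCF10A pCDH-HOTAIR replicate 1 (0.58). Without DCIS.COM pCDH-empty replicate 1 its empty-vector value was 0.49.

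SHMT2, which in mitochondria splits serine into glycine and a one-carbon unit, measured 110.1 and 107 CPM in MCF10A with the empty vector, 114 and 108 with HOTAIR, 338 and 308 in DCIS.COM with the empty vector and 323 and 328 with HOTAIR. MTHFD2, the mitochondrial folate enzyme that carries that unit on, measured 104 and 98.5 CPM in MCF10A with the empty vector, 93.8 and 101 with HOTAIR, 207 and 227 in DCIS.COM with the empty vector and 190.1 and 202 with HOTAIR. Every DCIS.COM library was above every MCF10A library for both. SHMT2 had a log2 fold change of 1.57 ± 0.07 (SE, limma adjusted p = 3.23e-07) and 1.55 ± 0.07 (SE, limma adjusted p = 3.56e-07), the smallest adjusted p of the 38 genes in each comparison. MTHFD2 had 1.09 ± 0.08 (SE, limma adjusted p = 5.02e-06) and 1.01 ± 0.08 (SE, limma adjusted p = 8.17e-06). SHMT2 and MTHFD2 overlap genes on the opposite strand (NDUFA4L2 and SLC4A5), and 7 pseudogenes of MTHFD2 are annotated, so their counts may hold reads of those.

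ASNS (chr7:97480989-97501854), which makes asparagine from aspartate and glutamine and whose promoter holds the CARE printed above, measured 3.70 and 3.73 log2 CPM in MCF10A with the empty vector, 3.58 and 3.38 with HOTAIR, 5.76 and 5.50 in DCIS.COM with the empty vector and 5.40 and 5.43 with HOTAIR. The lines were far apart, with the highest MCF10A library below the lowest DCIS.COM library. ASNS had a log2 fold change of 1.91 ± 0.11 (SE, limma adjusted p = 1.69e-06) with the empty vector and 1.94 ± 0.11 (SE, limma adjusted p = 1.63e-06) with HOTAIR, a 3.77-fold and a 3.83-fold difference. Without DCIS.COM pCDH-empty replicate 1 the empty-vector values were 1.79 for ASNS and 2.06 for PHGDH, and all 5 calls of the synthesis enzymes stayed.

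**Figure D3:**
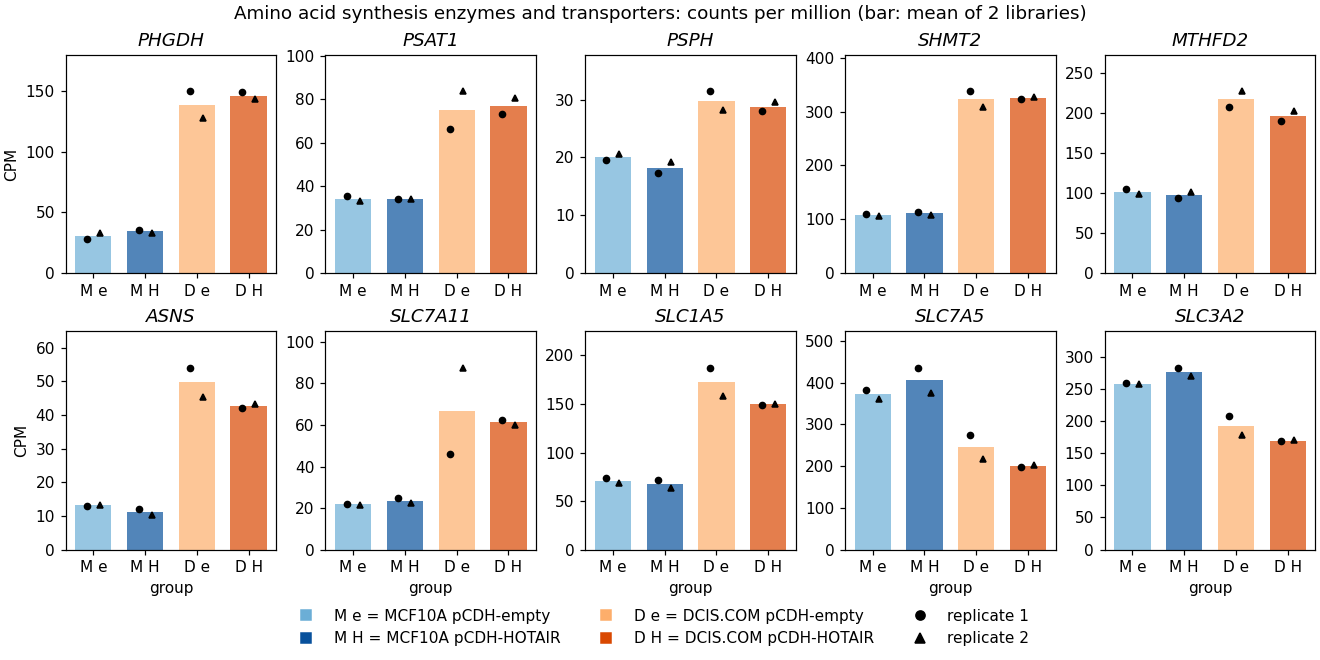
CPM (y axis, from 0) of the 6 synthesis enzymes and the 4 amino acid transporters in the 4 groups (x axis). Bars are means of 2 libraries, circles replicate 1 and triangles replicate 2. PHGDH, PSAT1, PSPH, SHMT2, MTHFD2, ASNS, SLC7A11 and SLC1A5 are higher in the DCIS.COM groups, and SLC7A5 and SLC3A2 are lower.

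The 4 amino acid transporters went in both directions. SLC7A11, which brings in cystine in exchange for glutamate, measured 21.8 and 21.7 CPM in MCF10A with the empty vector, 24.9 and 22.2 with HOTAIR, 46.1 and 87.6 in DCIS.COM with the empty vector and 62.4 and 59.98 with HOTAIR. The 2 libraries of DCIS.COM with the empty vector were the lowest and the highest of that line, with both HOTAIR libraries between them. Over MCF10A the log2 fold change was 1.55 ± 0.25 (SE, limma adjusted p = 0.000679) with the empty vector and 1.38 ± 0.25 (SE, limma adjusted p = 0.00134) with HOTAIR. It was 2.01 without DCIS.COM pCDH-empty replicate 1 and 1.09 without replicate 2, and was called in each case. SLC1A5, the exchanger that takes up glutamine, measured 74.00 and 68.2 CPM in MCF10A with the empty vector, 71.9 and 63.7 with HOTAIR, 187 and 158 in DCIS.COM with the empty vector and 149 and 150.3 with HOTAIR. Its lines did not overlap, with a log2 fold change of 1.28 ± 0.10 (SE, limma adjusted p = 9.36e-06) and 1.15 ± 0.10 (SE, limma adjusted p = 1.88e-05).

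SLC7A5 (LAT1) and SLC3A2 (4F2hc) are the light and the heavy chain of the exchanger of large neutral amino acids, and SLC3A2 is also the heavy chain for SLC7A11. SLC7A5 (chr16:87863629-87903113) measured 383 and 360.5 CPM in MCF10A with the empty vector, 436 and 376 with HOTAIR, 274 and 217 in DCIS.COM with the empty vector and 197 and 203 with HOTAIR. SLC3A2 (chr11:62623476-62656352) measured 259.8 and 257 CPM in MCF10A with the empty vector, 283 and 271 with HOTAIR, 208 and 178 in DCIS.COM with the empty vector and 169 and 170.3 with HOTAIR. Both chains were lower in every DCIS.COM library than in every MCF10A library, and within DCIS.COM both HOTAIR libraries were the lowest. SLC7A5 had a log2 fold change of -0.61 ± 0.12 (SE, limma adjusted p = 0.00193) with the empty vector and -1.02 ± 0.12 (SE, limma adjusted p = 0.000108) with HOTAIR. SLC3A2 had -0.43 ± 0.08 (SE, limma adjusted p = 0.00165), short of 1.5-fold, and -0.71 ± 0.08 (SE, limma adjusted p = 9.32e-05). The empty-vector call of SLC7A5 was lost, at under 1.5-fold, without MCF10A pCDH-empty replicate 1 (-0.57) or DCIS.COM pCDH-empty replicate 2 (-0.44). Of the 3 ATF4 targets whose promoters hold a CARE, ASNS was called higher in both comparisons, SLC3A2 lower with HOTAIR, and CHAC1 in neither. Pseudogene copies of SLC7A5 were listed too, SLC7A5P2 at up to 3.96 log2 CPM and SLC7A5P1 at up to 0.46, so part of the reads could be split among them.

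Of the 8 regulators among the ATF4 targets, 1 (12.5%) was called in each comparison, against 46.3% and 43.7% of all genes. It was TRIB3. This pseudokinase, which binds ATF4 and damps it, measured 4.67 and 4.71 log2 CPM in MCF10A with the empty vector, 4.51 and 4.52 with HOTAIR, 6.27 and 6.08 in DCIS.COM with the empty vector and 5.81 and 5.85 with HOTAIR. The lines did not overlap, and within DCIS.COM both HOTAIR libraries were below both empty-vector libraries. Its log2 fold change was 1.49 ± 0.08 (SE, limma adjusted p = 1.26e-06) with the empty vector, a 2.81-fold difference, and 1.31 ± 0.08 (SE, limma adjusted p = 2.57e-06) with HOTAIR. The median over the 8 regulators was -0.18 with the empty vector and -0.28 with HOTAIR.

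The other 7 regulators differed by less than 1.5-fold. DDIT3 (CHOP), the factor tied to cell death under lasting ER stress, measured 1.91 and 1.79 log2 CPM in MCF10A with the empty vector, 2.04 and 2.18 with HOTAIR, 1.40 and 1.52 in DCIS.COM with the empty vector and 1.77 and 1.55 with HOTAIR, with 75 to 119 reads a library. SESN2, a leucine sensor upstream of mTORC1, measured 3.86 and 3.96 log2 CPM in MCF10A with the empty vector, 4.04 and 4.13 with HOTAIR, 3.64 and 3.48 in DCIS.COM with the empty vector and 3.73 and 3.76 with HOTAIR. CHAC1, which breaks down glutathione and is among the most responsive ATF4 targets, measured 0.18 and 0.62 log2 CPM in MCF10A with the empty vector, 0.21 and 0.74 with HOTAIR, 0.98 and 0.65 in DCIS.COM with the empty vector and 0.67 and 0.37 with HOTAIR, with 21 to 57 reads. DDIT3 and SESN2 lay below MCF10A in each DCIS.COM library, whereas the CHAC1 libraries overlapped between the HOTAIR-vector groups. The empty-vector log2 fold change was -0.39 ± 0.15 (SE, limma adjusted p = 0.0445) for DDIT3, -0.35 ± 0.10 (SE, limma adjusted p = 0.0121) for SESN2 and 0.41 ± 0.26 (SE, limma adjusted p = 0.194) for CHAC1. For CHAC1 the 95% interval ran from -0.19 to 1.02, on few reads, and it holds differences past 1.5-fold. CEBPG, a C/EBP partner of ATF4, had -0.50 ± 0.10 (SE, limma adjusted p = 0.00182) and was called without DCIS.COM pCDH-empty replicate 2 (-0.61). Without replicate 1 CEBPG had -0.40. CEBPB had -0.20 ± 0.12 (SE, limma adjusted p = 0.152) with the empty vector. With HOTAIR it had -0.45 (limma adjusted p = 0.00964), short of 1.5-fold. ATF5, an ATF4-like factor, had 0.51 ± 0.14 (SE, limma adjusted p = 0.0123) and was called without DCIS.COM pCDH-empty replicate 1 (0.60) or MCF10A pCDH-empty replicate 1 (0.67). PPP1R15A (GADD34), the phosphatase subunit that reverses eIF2 phosphorylation, had -0.16 ± 0.09 (SE, limma adjusted p = 0.147). ATF5 and DDIT3 overlap genes on the opposite strand (NUP62, and MARS1 with MBD6).

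Of the 15 ER chaperones and degradation factors, 5 were higher and 1 lower by the call with the empty vector, and 5 were higher and 0 lower with HOTAIR. The calls make up 40.0% and 33.3% of the group, against 46.3% and 43.7% of all genes. Their summed level was 4188 to 4522 CPM in the MCF10A libraries and 5847 to 6328 CPM in the DCIS.COM libraries. PDIA6, a disulfide isomerase, measured 7.78 and 7.76 log2 CPM in MCF10A with the empty vector, 7.82 and 7.78 with HOTAIR, 8.88 and 8.84 in DCIS.COM with the empty vector and 8.92 and 8.92 with HOTAIR. CANX, the membrane lectin chaperone of the glycoprotein folding cycle, measured 9.61 and 9.62 log2 CPM in MCF10A with the empty vector, 9.56 and 9.58 with HOTAIR, 10.44 and 10.62 in DCIS.COM with the empty vector and 10.57 and 10.58 with HOTAIR. For both, the libraries of each line lay close together and the lines did not overlap. PDIA6 had a log2 fold change of 1.09 ± 0.06 (SE, limma adjusted p = 9.44e-07) and 1.12 ± 0.06 (SE, limma adjusted p = 8.44e-07). CANX had 0.92 ± 0.08 (SE, limma adjusted p = 1.57e-05) and 1.01 ± 0.08 (SE, limma adjusted p = 9.38e-06).

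MANF, a small secreted ER protein that protects cells under ER stress, measured 5.56 and 5.66 log2 CPM in MCF10A with the empty vector, 5.61 and 5.56 with HOTAIR, 6.49 and 6.42 in DCIS.COM with the empty vector and 6.52 and 6.53 with HOTAIR. CRELD2, an ER factor with disulfide isomerase activity, measured 4.47 and 4.43 log2 CPM in MCF10A with the empty vector, 4.51 and 4.32 with HOTAIR, 5.21 and 5.24 in DCIS.COM with the empty vector and 5.31 and 5.19 with HOTAIR. SDF2L1, a partner of DNAJB11 and HSPA5 in the ER, measured 3.66 and 3.57 log2 CPM in MCF10A with the empty vector, 3.57 and 3.50 with HOTAIR, 4.21 and 4.50 in DCIS.COM with the empty vector and 4.44 and 4.50 with HOTAIR. All 3 were higher in every DCIS.COM library than in every MCF10A library. The log2 fold change was 0.85 ± 0.07 (SE, limma adjusted p = 1.13e-05) and 0.94 ± 0.07 (SE, limma adjusted p = 6.19e-06) for MANF. For CRELD2, which overlaps ALG12 on the opposite strand, it was 0.77 ± 0.09 (SE, limma adjusted p = 9.94e-05) and 0.83 ± 0.09 (SE, limma adjusted p = 6.71e-05). For SDF2L1 it was 0.74 ± 0.11 (SE, limma adjusted p = 0.000529) and 0.94 ± 0.11 (SE, limma adjusted p = 0.000134).

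The 2 main chaperones of the ER lumen were not called in either comparison. HSPA5 (BiP), which binds unfolded chains and holds the sensors inactive, measured 8.14 and 8.35 log2 CPM in MCF10A with the empty vector, 8.47 and 8.52 with HOTAIR, 8.77 and 8.44 in DCIS.COM with the empty vector and 8.73 and 8.54 with HOTAIR. HSP90B1 (GRP94) measured 9.64 and 9.70 log2 CPM in MCF10A with the empty vector, 9.81 and 9.82 with HOTAIR, 9.72 and 10.10 in DCIS.COM with the empty vector and 10.10 and 10.04 with HOTAIR. The HSPA5 values of the lines met, since DCIS.COM pCDH-empty replicate 2 was below the highest MCF10A HOTAIR library, and HSP90B1 was at an MCF10A level in DCIS.COM pCDH-empty replicate 1 only. HSPA5 had a log2 fold change of 0.36 ± 0.12 (SE, limma adjusted p = 0.0303) with the empty vector and 0.14 ± 0.12 (SE, limma adjusted p = 0.346) with HOTAIR. HSP90B1 had 0.24 ± 0.12 (SE, limma adjusted p = 0.0981) and 0.26 ± 0.12 (SE, limma adjusted p = 0.0822). Without DCIS.COM pCDH-empty replicate 1 the empty-vector values were 0.20 for HSPA5 and 0.43 for HSP90B1. Both promoters hold the ERSE printed above, as do those of CANX and CRELD2, which were called higher. The promoters of CALR, not called in either comparison, and of XBP1, called lower with HOTAIR, hold it too.

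The 7 other ER genes that were not called lay between -0.37 and 0.57 on the log2 fold change scale with the empty vector. HYOU1, the large ER chaperone that acts with HSPA5, had 0.57 ± 0.08 (SE, limma adjusted p = 0.000282), just under 1.5-fold, and was called without DCIS.COM pCDH-empty replicate 2, at 0.67. Without replicate 1, the library that stood apart, HYOU1 had 0.47. PDIA3, the isomerase that works with calnexin and calreticulin, had 0.55 ± 0.06 (SE, limma adjusted p = 7.05e-05) with the empty vector and was called with HOTAIR only without MCF10A pCDH-HOTAIR replicate 2 (0.59) among the left-out libraries. Its copy PDIA3P1 was listed at 3.97 to 4.73 log2 CPM. CALR had 0.33 ± 0.07 (SE, limma adjusted p = 0.00293), and PDIA4, another isomerase, had 0.18 ± 0.06 (SE, limma adjusted p = 0.0358). DNAJC3 (p58IPK), a co-chaperone that inhibits PERK, measured 7.77 and 7.77 log2 CPM in MCF10A with the empty vector, 7.68 and 7.61 with HOTAIR, 7.62 and 7.98 in DCIS.COM with the empty vector and 7.91 and 7.89 with HOTAIR. Its DCIS.COM pCDH-empty replicate 1 lay below both MCF10A controls and replicate 2 above them. DNAJC3 had 0.03 ± 0.11 (SE, limma adjusted p = 0.803), and its sign turned to -0.15 without DCIS.COM pCDH-empty replicate 2. The degradation factors lay on the other side, with -0.21 ± 0.07 (SE, limma adjusted p = 0.0229) for HERPUD1 and -0.37 ± 0.11 (SE, limma adjusted p = 0.0148) for SEL1L, both parts of the HRD1 ubiquitin ligase complex.

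DNAJB9 (chr7:108210311-108215294), the co-chaperone ERdj4 and a known target of XBP1, was the 1 ER gene called lower. It measured 4.16 and 4.18 log2 CPM in MCF10A with the empty vector, 4.16 and 4.01 with HOTAIR, 2.25 and 3.38 in DCIS.COM with the empty vector and 3.28 and 3.38 with HOTAIR. The 4 MCF10A libraries were close together, 3 DCIS.COM libraries lay near 3.3 to 3.4, and DCIS.COM pCDH-empty replicate 1 lay more than 1 log2 unit below those. The empty-vector log2 fold change was -1.35 ± 0.30 (SE, limma adjusted p = 0.00421) with all libraries, -0.79 without that library and -1.92 with it as the only DCIS.COM control, and it was called each time. With HOTAIR it was -0.76 ± 0.30 (SE, limma adjusted p = 0.0545). All groups share 1 estimate of the spread for each gene, and once either DCIS.COM pCDH-empty library was left out the same HOTAIR-vector value was called, with a limma adjusted p of 3.62e-05 without replicate 1 and 4.68e-05 without replicate 2.

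Of 36 other integrated stress response genes, 15 were called with the empty vector, 9 higher and 6 lower, at a median of 0.03 on the log2 fold change scale, and 14 were called with HOTAIR, 7 higher and 7 lower. These are 41.7% and 38.9% of the list, near the 46.3% and 43.7% of all genes. EIF4EBP1, the translation repressor 4E-BP1, had 1.65 ± 0.10 (SE, limma adjusted p = 2.02e-06), PYCR1, a proline synthesis enzyme, had 1.02 ± 0.09 (SE, limma adjusted p = 2.21e-05), and LARS1, the leucyl-tRNA synthetase, had 0.95 ± 0.06 (SE, limma adjusted p = 2.85e-06). On the lower side were ALDH1L2, a mitochondrial folate enzyme, at -5.77 ± 0.20 (SE, limma adjusted p = 1.08e-07), CTH, which makes cysteine from cystathionine, at -2.96 ± 0.23 (SE, limma adjusted p = 9.23e-06), and SLC38A2, the transporter SNAT2, at -2.12 ± 0.13 (SE, limma adjusted p = 2.77e-06). These 6 genes kept their direction and call with HOTAIR.

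Of 36 other genes of the unfolded protein response and ER folding, 34 were in the table, and DERL3 and CREB3L1 were not analysed here. With the empty vector 6 of the 34 were called, 3 higher and 3 lower, at a median of 0.04, and with HOTAIR 7 were called, 3 higher and 4 lower. These are 17.6% and 20.6% of the list, below the 46.3% and 43.7% of all genes. The higher genes were ERO1B, an ER oxidase, at 4.77 ± 0.31 (SE, limma adjusted p = 3.42e-06), SRPRB, a subunit of the signal recognition particle receptor, at 1.55 ± 0.06 (SE, limma adjusted p = 2.10e-07), and DNAJB11, a co-chaperone of HSPA5, at 1.15 ± 0.07 (SE, limma adjusted p = 1.78e-06). Among the lower ones were ERO1A, the related oxidase, at -1.29 ± 0.20 (SE, limma adjusted p = 0.000579), and EDEM2, which trims mannose from misfolded glycoproteins, at -0.74 ± 0.10 (SE, limma adjusted p = 0.000259).

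The second question is whether HOTAIR changed these genes within a line. In limma's test none of the 38 was called in MCF10A, where 3 of all genes (0.0218%) were, and none had an unadjusted p under 0.05, against 7.28% of all genes. None was called in DCIS.COM either, where 12 of all genes (0.0871%) were, all higher, with 1 more (0.00726%) past the adjusted p on the lower side, and 3 of the 38 (7.89%) had an unadjusted p under 0.05, against 17.5% of all genes. With limma-voom on the recovered reads 0 were called in both lines, with 0 and 4 at an unadjusted p under 0.05. When limma was given the 4 MCF10A libraries alone, 0 of the 38 were called and 7 had an unadjusted p under 0.05. Of all 13771 genes 2052 did so, against 1003 with all 8 libraries. With only the 4 libraries of DCIS.COM it was 1 of the 38 and 1203 of all genes. The low MCF10A share thus depended on which libraries were fitted together. The log2 fold changes of the 38 ran from -0.24 to 0.26 in MCF10A, with 95% interval bounds between -0.78 and 0.68, and from -0.35 to 0.51 in DCIS.COM, with bounds between -0.90 and 1.21. Their median was 0.01 in each line, as it was -0.01 and 0.01 over all genes. In MCF10A the 95% interval lay within 1.5-fold either way for 34 of the 38, the exceptions being CHAC1, DDIT3, DNAJB9 and SLC7A11. In DCIS.COM it did so for 35, all but CHAC1, DNAJB9 and SLC7A11. The 2 HOTAIR comparisons share no library, while each shares its libraries with the line comparisons.

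**Figure D4:**
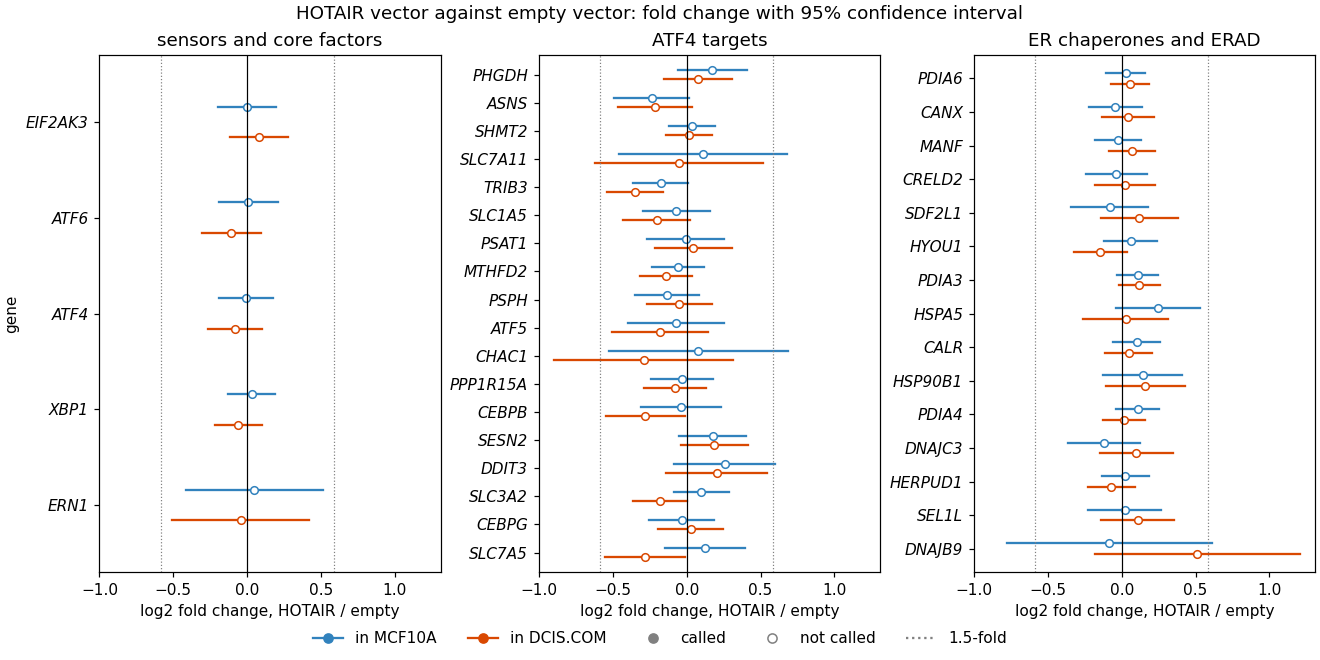
Log2 fold change of HOTAIR over empty vector (x axis) with its 95% confidence interval (lines) in MCF10A and in DCIS.COM for each of the 38 genes (y axis), n = 2 libraries a group. Open points are not called, and dotted lines mark 1.5-fold. All points are open, and the widest intervals are those of DNAJB9, CHAC1 and SLC7A11.

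The largest HOTAIR differences in MCF10A were small. On the higher side they were 0.26 ± 0.15 (SE) for DDIT3, 0.25 ± 0.12 for HSPA5 and 0.18 ± 0.10 for SESN2, as log2 fold changes. On the lower side they were -0.24 ± 0.11 for ASNS, -0.18 ± 0.08 for TRIB3 and -0.14 ± 0.09 for PSPH. The adjusted p of these 6 in limma ran from 0.715 to 0.867. For DDIT3, HSPA5 and SESN2 both HOTAIR libraries were above both controls, and for the other 3 both were below, as 47.2% of all genes did not overlap.

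In DCIS.COM the largest were 0.51 ± 0.30 for DNAJB9, 0.20 ± 0.15 for DDIT3 and 0.19 ± 0.10 for SESN2 on the higher side. On the lower side they were -0.35 ± 0.08 for TRIB3, -0.29 ± 0.26 for CHAC1 and -0.28 ± 0.12 for SLC7A5. The limma adjusted p was smallest for TRIB3, at 0.179, with an unadjusted p of 0.00260. Both HOTAIR libraries of TRIB3 were below both controls, and 49.2% of all genes did not overlap in this comparison. The other 2 genes with an unadjusted p under 0.05 were CEBPB at -0.28 and SLC7A5, both with an adjusted p of 0.278 or above. Without DCIS.COM pCDH-empty replicate 1 the log2 fold change was -0.25 for TRIB3, -0.14 for CEBPB, -0.12 for CHAC1 and -0.11 for SLC7A5.

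DNAJB9 and SLC7A11 depended on the control library that stood apart. The HOTAIR log2 fold change of DNAJB9 in DCIS.COM was 0.51 with all libraries, -0.05 without DCIS.COM pCDH-empty replicate 1 and 1.08 without replicate 2, where it was called. That of SLC7A11 was -0.05, -0.52 and 0.41 in the same order. Both genes thus changed sign with the control library kept.

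The difference of the HOTAIR effect between the lines was tested as an interaction, called at a limma adjusted p under 0.05 with no fold threshold. None of the 38 was called, against 0.0436% of all genes, 0.0363% with a higher and 0.00726% with a lower effect in DCIS.COM, and 2 of the 38 (5.26%) had an unadjusted p under 0.05, SLC3A2 and SLC7A5, against 10.5% of all genes. The interaction was -0.41 ± 0.17 (SE, limma adjusted p = 0.461) for SLC7A5 and -0.28 ± 0.11 (SE, limma adjusted p = 0.458) for SLC3A2. The HOTAIR log2 fold changes of SLC7A5 and SLC3A2 behind these were 0.12 and 0.10 in MCF10A and -0.28 and -0.18 in DCIS.COM, and none passed the test. CHAC1 had an interaction of -0.37 ± 0.37, and DNAJB9, DNAJC3 and SDF2L1, the largest on the positive side, had 0.59 ± 0.42, 0.22 ± 0.15 and 0.20 ± 0.16. These positive values rested on DCIS.COM pCDH-empty replicate 1, and without it they were 0.031, 0.042 and 0.055 in that order. The interactions of SLC7A5 and SLC3A2 were -0.24 and -0.17 without that library, and their HOTAIR log2 fold changes in DCIS.COM were -0.11 and -0.07. PSPH and XBP1, called between the lines with HOTAIR only, had 0.09 ± 0.13 and -0.09 ± 0.10. Without DCIS.COM pCDH-empty replicate 1 the interaction of SLC7A11 was -0.63, and it was 0.30 with that library as the only DCIS.COM control. Without replicate 2, which leaves that library as the only DCIS.COM control, 13 of the 38 and 4414 of all genes were called.

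By group, the HOTAIR medians lay between -0.11 and 0.06 in both lines. They were 0.01 and -0.06 for the sensors and core factors, -0.02 and -0.11 for the ATF4 targets, and 0.03 and 0.06 for the ER genes, in MCF10A and DCIS.COM. Within the ATF4 targets they were -0.03 and -0.02 for the synthesis enzymes, 0.11 and -0.19 for the transporters, and -0.03 and -0.13 for the regulators. Without DCIS.COM pCDH-empty replicate 1 the DCIS.COM medians of the 3 groups were 0.03, -0.08 and -0.03, in the order above. Without replicate 2 they were -0.18, -0.11 and 0.04. The sign thus turned with the control kept for the sensors and core factors and for the ER genes. With all libraries, all 4 transporters were below 0 in DCIS.COM, and 3 of them were above 0 in MCF10A. SLC7A11 in DCIS.COM was at 0.41 without DCIS.COM pCDH-empty replicate 2. None of the 36 other integrated stress response genes and none of the 34 other ER genes was called in either line. In MCF10A 2 (5.56%) and 2 (5.88%) of them had an unadjusted limma p under 0.05, against 7.28% of all genes. In DCIS.COM it was 9 (25%) and 4 (11.8%), against 17.5% of all genes. Of the 36 other integrated stress response genes, 25 were below 0 and 11 above in DCIS.COM, against 6613 and 7158 of all 13771 genes. These counts use all 8 libraries, and whether the split rests on DCIS.COM pCDH-empty replicate 1 was not tested.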

How the data were processed

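RNA of the 8 libraries (RNeasy, ScriptSeq v2, paired-end HiSeq2000 reads) had been aligned to hg19 with Rsubread and counted on UCSC hg19 genes with featureCounts by the authors. The deposited values are log2 CPM made by the authors with edgeR for 13771 genes, 343 of them with no symbol. Their prior count, scaling factors and strand setting are not given in the sources used here. From the low values, whole reads were recovered for every value, within 0.05 reads.

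The 4 group means were fitted with limma 3.58.1 in R 4.3.3 on the deposited values, with a mean-variance trend and Benjamini-Hochberg adjustment over all genes. Calls needed an adjusted p under 0.05 and a 1.5-fold change, the interaction only the former. An exact permutation test of 2 libraries against 2 could not go below 0.333 and was not used. Members, lists and named genes were chosen with earlier results of these data known. Library values were given for called genes, the 3 largest changes a direction, sensors and core factors, and their partners. Gene positions came from GENCODE 44 lifted to GRCh37. Promoters were RefSeq's (GRCh38.p14), located in GRCh37 by exact match. Alternatives were other scalings, a GC correction, pseudocounts, a filter, limma-voom, a replicate block, separate fits and leaving out each library. Some genes of the lists are not reported here by name.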

Additional observations from a re-analysis of the deposited data

How the results depend on the processing

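All 38 genes kept their sign between the lines under every alternative except DNAJC3, at -0.15 with the empty vector without DCIS.COM pCDH-empty replicate 2 (range -0.15 to 0.21 over left-out libraries), and CHAC1, with the HOTAIR vector, at -0.028 under quantile normalization and -0.22 to 0.31 over left-out libraries (-0.22 without MCF10A pCDH-HOTAIR replicate 1 and -0.10 without DCIS.COM pCDH-HOTAIR replicate 1). The HOTAIR effect on DNAJB9 in DCIS.COM ran from -0.053 (without DCIS.COM pCDH-empty replicate 1) to 1.08 (without replicate 2). With no fold threshold 32 and 29 of the 38 were called between the lines with the empty and the HOTAIR vector, and at a log2 fold change of at least 1.5 there were 4 and 3, with 2418 and 2357 of all genes. The line calls that changed when 1 library was left out are given with their genes above. XBP1 lost its HOTAIR-vector call under median centring (-0.58), quantile normalization (-0.56) and totals without RN7SL1 and RN7SL2 (-0.56). The last of these settings shifted the deposited values by the share of reads on these RNAs. That shift was laid over the authors' own scaling, so the setting is not a plain change of the library total. SLC7A5 lost its empty-vector call under median centring (-0.57), ERN1 with a pseudocount of 1 CPM (-0.52) and SDF2L1 with the GC correction (0.58). DNAJB9 gained a HOTAIR-vector call under median centring, totals without RN7SL1 and RN7SL2, the GC correction, a pseudocount of 1 CPM, the replicate block, a separate fit and limma-voom. PDIA3 gained one there without RN7SL1 and RN7SL2. With the empty vector PSPH gained a call under median centring, quantile normalization and totals without RN7SL1 and RN7SL2, HYOU1 under the first and last of these, PDIA3 under median centring and ATF5 under quantile normalization. The cause was not tested.

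Of the HOTAIR effect in MCF10A, 3 of all genes were called, and 14 with the GC correction, 6 with a pseudocount of 1 CPM, 5 with limma-voom, 1 in a separate fit and 1 at a log2 fold change of at least 1.5. In DCIS.COM the count was 12, and 51, 6 without a mean-variance trend, 20 with the replicate block, 0 in a separate fit and 1 at that fold. For the interaction it was 6, and 28 with the GC correction, 10 with the pseudocount, 0 without the trend, 0 with the replicate block and 1 at that fold. None of these settings called any of the 38. Over left-out libraries the counts of all genes ran from 1 to 51, 1 to 1403 and 0 to 4414, and those of the 38 were 0, 0 to 1 and 0 to 13. The highest count in MCF10A came without DCIS.COM pCDH-empty replicate 1 and likewise without replicate 2, and the highest in DCIS.COM and for the interaction without replicate 2. The lone library left in a group is then assumed to vary like the other groups. Samples with the same replicate number did not deviate together (correlations of -0.02 to 0.07), so the numbers were not taken as pairs. The replicate block called 17, 20, 0, 0 and 0 of the 38, against 6378, 6031, 2, 20 and 0 of all genes. The added gene among the 38 was DNAJB9. Depth limits CHAC1, ERN1 and DDIT3, which had 21 to 133 reads a library.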
